A study of Mus musculus with 9 samples.

Results

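A set of 36 genes of meningeal fibroblasts and their extracellular matrix was followed across 9 brain RNA-seq libraries from mice labelled as heterozygous knockouts of an AP-2 transcription factor gene and from wild-type mice. The set was a list of symbols, chosen by what the genes are known for: 5 membrane transporters, 5 growth factor, BMP and retinoic acid signals, 6 transcription factors, 9 collagen chains, 5 small leucine-rich proteoglycans and 6 other matrix, secreted or surface proteins. It was also chosen with earlier results of these data known, so counts over the set describe these libraries and are no independent support. All 36 were found among the 54446 genes of the count tables, and all 36 were among the 17355 genes that passed the filter on low counts. The animals were adult male mice of 3 to 4 months, labelled as wild type of the B6N strain, as Tfap2a+/- or as Tfap2b+/-, with 3 libraries per genotype. Neither how the knockout alleles were made nor which brain region was sampled is given in the sources used here. They do not state whether the 3 libraries of a genotype are separate animals, and a p-value therefore reflects the spread among these libraries alone, part of which can be technical.

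The meninges wrap the brain in layers of connective tissue, the dura, the arachnoid and the pia, whose fibroblasts secrete collagens, proteoglycans and the laminins of the pial basement membrane. They also carry transporters that move solutes between blood, cerebrospinal fluid and brain, and they release signals such as retinoic acid and BMPs that act on the developing cortex. The forebrain meninges derive largely from the neural crest, an embryonic population in whose development AP-2 factors are known to act.

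The targeted genes were examined first. Tfap2a, which encodes AP-2 alpha, was near the limit of detection, with CPM values (counts scaled to a common library size with TMM factors) of 0.610, 0.263 and 0.734 in wild-type libraries 1, 2 and 3, of 0.445, 0.223 and 0.461 in Tfap2a+/- libraries and of 1.59, 0.674 and 0.113 in those labelled Tfap2b+/-. Tfap2b, which encodes AP-2 beta, was at 2.25, 0.715 and 14.8 CPM in wild type, at 1.88, 2.54 and 3.96 CPM in Tfap2a+/- and at 32.9, 8.90 and 5.81 CPM in those labelled Tfap2b+/-. The values of Tfap2a overlapped between Tfap2a+/- and wild type (log2 fold -0.49 ± 0.80, SE). Tfap2b went against its label, with a mean above wild type and overlapping values (log2 fold 1.42 ± 0.98), so these libraries are called by their label, and Tfap2b+/- below always means labelled as such.

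Library totals ran from 21946800 to 29214975 counts in genes, and 3 counts, the level that a count of 0 allows, corresponded to 0.101 to 0.141 CPM. All 36 genes had counts above that level in every library. In bulk tissue, fewer or more fibroblasts and less or more RNA per fibroblast cannot be told apart. Of 24 other markers of meningeal fibroblasts, arachnoid and dural cells, 23 passed the filter. Ptgds, a prostaglandin D synthase of the arachnoid that oligodendrocytes also make, was the highest of them at 331 to 984 CPM. Dpt, a marker of dural fibroblasts, was the 1 that did not pass, at 0 to 0.19 CPM, and its level does not stand for the other dural markers of the list. Libraries also differed in markers of other cells. The summed level of 16 choroid plexus epithelium markers was 3421 CPM in wild-type library 2 and 955 CPM in Tfap2a+/- library 1, against 25.0 to 328 CPM in the other 7 libraries. The 10 oligodendrocyte markers summed to 2704 CPM in the library labelled Tfap2b+/- 3 and to 2272 CPM in Tfap2a+/- library 3, against 4443 to 7385 CPM in the other 7 libraries, and the 11 ependyma markers were lowest in Tfap2a+/- library 3, at 15.6 CPM against 23.8 to 91.0 CPM. All 10 microglia markers had a fitted level below wild type in Tfap2b+/- (median log2 fold -0.24, or -0.08 without library 1, with 3 of 10 then higher), 2 of them at an unadjusted p under 0.05, where 4.15% of all genes were lower. The 7 vascular smooth muscle markers summed to 116 CPM in the library labelled Tfap2b+/- 3 and to 42.9 to 89.8 CPM elsewhere. A list of 8 olfactory bulb markers, added after the data had been seen, summed to 171 CPM in that same library and to 6.86 to 32.4 CPM elsewhere. None of these marker lists was at 0 in any library, and their part in the results below was not tested.

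Because AP-2 proteins bind GC-rich palindromes, the promoters of 4 genes are shown with the best known AP-2 consensus, GCCNNNGGC, in capitals. The genes were taken from the 15 with the smallest p-values in the comparison of Tfap2b+/- with wild type: Aldh1a2, Foxc1 and Islr were the 3 of them whose listed promoter held a match, and Slc6a20a, which holds none, stands beside them. Fmod, Ogn, Col1a2, Slc22a6 and Slc6a13 had no match in their listed promoters either and are not shown. Lama1, Serping1, Bmp7, Fn1, Foxc2 and Col1a1 had no listed promoter. The genes shown are thus not typical of the 15. The windows run from 250 bases before to 50 bases after the transcription start (RefSeq, GRCm38.p6), and are written in the direction of the gene. They are chr9:71215539-71215838 on the plus strand for Aldh1a2, chr13:31806396-31806695 on the plus strand for Foxc1, chr9:58158505-58158804 on the minus strand for Islr and chr9:123678783-123679082 on the minus strand for Slc6a20a.
Aldh1a2: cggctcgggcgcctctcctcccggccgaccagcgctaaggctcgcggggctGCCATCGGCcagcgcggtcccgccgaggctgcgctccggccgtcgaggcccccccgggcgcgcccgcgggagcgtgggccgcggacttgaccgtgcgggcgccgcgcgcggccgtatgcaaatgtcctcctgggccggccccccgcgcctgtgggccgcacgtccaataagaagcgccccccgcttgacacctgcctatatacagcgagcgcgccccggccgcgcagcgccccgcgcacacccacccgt
Foxc1: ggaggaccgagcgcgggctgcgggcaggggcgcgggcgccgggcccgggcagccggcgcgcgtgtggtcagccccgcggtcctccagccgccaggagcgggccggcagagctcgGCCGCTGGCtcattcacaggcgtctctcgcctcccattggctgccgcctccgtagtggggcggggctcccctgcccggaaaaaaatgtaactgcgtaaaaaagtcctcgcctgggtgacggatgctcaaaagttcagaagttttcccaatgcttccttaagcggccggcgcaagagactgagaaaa
Islr: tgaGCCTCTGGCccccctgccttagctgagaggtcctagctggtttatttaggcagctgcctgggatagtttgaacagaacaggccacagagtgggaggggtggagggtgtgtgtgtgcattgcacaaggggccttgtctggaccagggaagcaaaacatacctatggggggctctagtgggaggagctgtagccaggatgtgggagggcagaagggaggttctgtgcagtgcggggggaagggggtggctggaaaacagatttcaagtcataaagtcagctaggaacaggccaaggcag
Slc6a20a: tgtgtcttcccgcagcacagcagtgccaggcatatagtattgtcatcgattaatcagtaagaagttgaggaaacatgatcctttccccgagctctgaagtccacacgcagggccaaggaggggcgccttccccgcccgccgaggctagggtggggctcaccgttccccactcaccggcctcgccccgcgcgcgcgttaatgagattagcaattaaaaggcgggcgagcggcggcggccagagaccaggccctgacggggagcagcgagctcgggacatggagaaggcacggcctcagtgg
The first base of the match lay at -199 in Aldh1a2, at -136 in Foxc1 and at -247 in Islr, counted from the transcription start. The GC content of these 4 windows was 78.0%, 67.3%, 57.0% and 62.3% in the order shown.

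The RefSeq table held 33 promoters of 25 of the 36 genes. Slc47a1, Lum, Foxc2, Col12a1, Col1a1, Col5a2, Dcn, Serping1, Lama1, Fn1 and Bmp7 had no entry. GCCNNNGGC, searched on both strands, was present in 10 of the 33 promoters, or 30.3%, against 16.6% of all 32851 promoters in the table. The 10 include both listed promoters of Fbln1, windows that overlap and hold the same match, so that it counts more than once. The promoters with a match belonged to 9 of the 25 genes: Slc13a4, Igf2, Aldh1a2, Foxc1, Zic1, Col5a1, Col6a2, Fbln1 and Islr. Col5a1, with 3 matches, was the gene with the most. The same AP-2 palindrome with 1 more base between its arms GCC and GGC was in 3 promoters (9.09%, against 14.8% of all), those of Aldh1a2, Tbx18 and Fbln2. The forkhead core TGTTTAC was in 1 promoter, that of Col6a1 (3.03%, against 3.65% of all). The TATA box TATAAA was in 3 promoters (9.09%, against 13.6% of all), those of Twist1, Col3a1 and Ogn. No match of 1 motif overlapped a match of another in these promoters. A match describes the letters of the window and says nothing of whether a factor binds there.

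Levels per kilobase of exon, averaged over the 9 libraries, spanned a wide range. Igfbp2, an insulin-like growth factor binding protein, led with 18.5 CPM per kb, followed by Col6a1 at 12.3, the proteoglycan gene Fmod at 9.28, the fibronectin gene Fn1 at 8.90 and the zinc-finger gene Zic1 at 8.86 CPM per kb. At the other end stood Foxd1 at 0.44, Twist1 at 0.47, Col6a3 at 0.48 and Col5a2 at 0.58 CPM per kb. Several of the leading genes are known in other brain cells too, Igfbp2 in choroid plexus and Zic1 in cerebellar granule neurons among them. Among the 36, Slc22a6 varied most between libraries, 7.64-fold from the lowest to the highest level, and Fbln1 least, 1.68-fold.

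**Figure D1:**
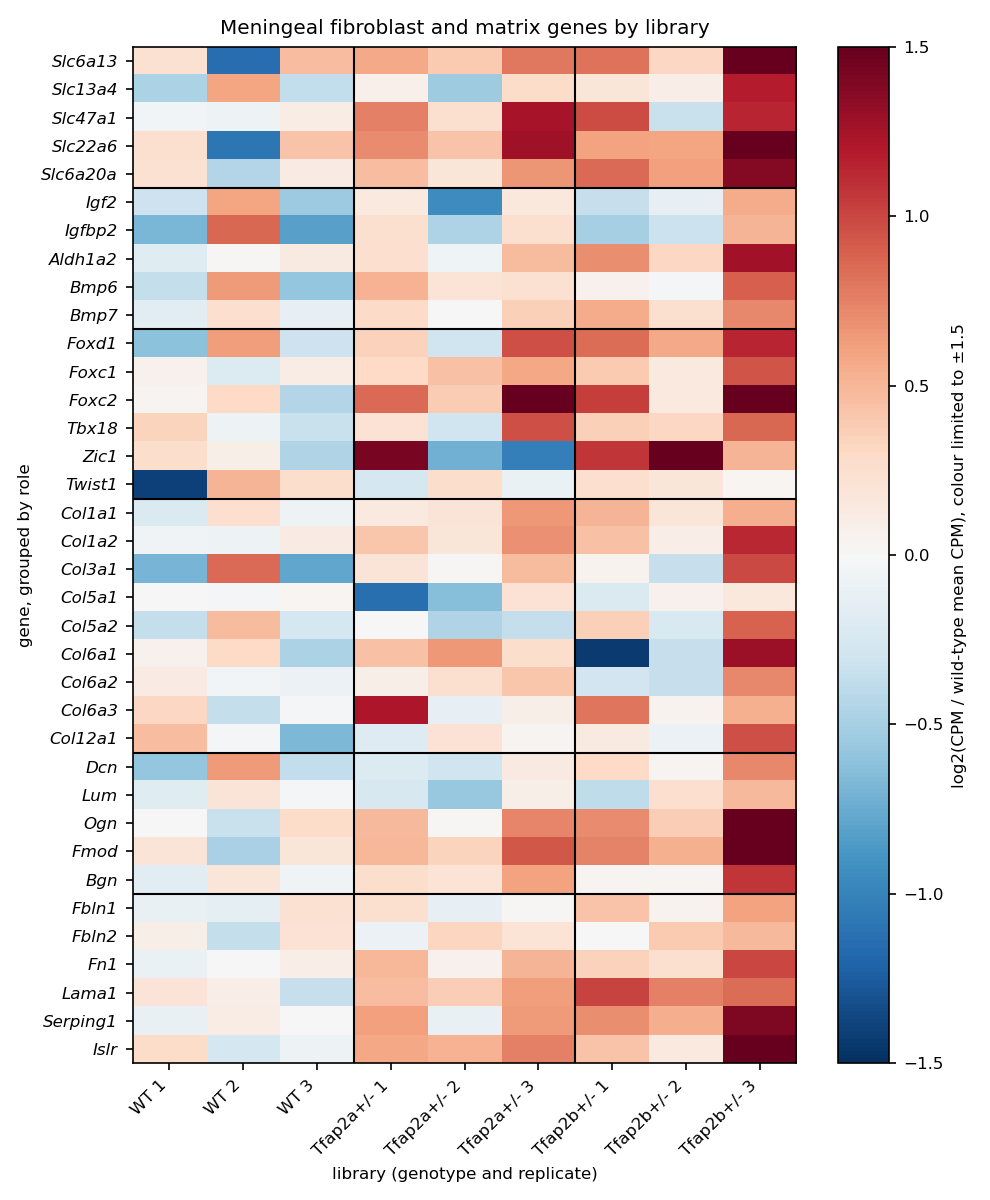
Level of each of the 36 genes (rows, grouped by role) in each of the 9 libraries (columns), as log2 of CPM over the wild-type mean, with colour limited to ±1.5. Red, above the wild-type mean, prevails in the library labelled Tfap2b+/- 3, which held the highest value of 26 of the 36 genes.

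Against wild type, 29 of the 36 genes had a higher fitted level in Tfap2a+/- and 35 of 36 in the libraries labelled Tfap2b+/-. These comparisons share the wild-type libraries. The median log2 fold of the 36 genes was 0.36 in Tfap2a+/- and 0.52 in Tfap2b+/-, while the medians of all 17355 genes were -0.01 and -0.00. No gene of the set passed an adjusted p of 0.05 in edgeR's quasi-likelihood test in either comparison, and neither did any other gene (0% of all genes in each of the 3 comparisons). DESeq2 called 0 of the 36 in Tfap2a+/- and 2, Lama1 and Slc6a20a, in Tfap2b+/- (adjusted p = 0.00369 and 0.0225). It also called genes outside the set in both comparisons, where edgeR called none, so its calls are not particular to the set. Their counts over all genes are given with the other settings below.

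At an unadjusted p under 0.05, edgeR found 1 of the 36 genes higher in Tfap2a+/-, Lama1, and 0 lower, where 2.15% of all genes were higher and 1.68% lower. In Tfap2b+/- it found 15 higher and 0 lower, where 6.46% of all genes were higher and 4.15% lower. Every library lay above every wild-type library for 8 of the 36 genes in Tfap2a+/- (4.85% of all genes) and for 10 in Tfap2b+/- (8.84% of all genes). The adjusted p of the 15 genes ran from 0.26 to 0.466. In Tfap2a+/- the smallest adjusted p of the 36 was 0.999.

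**Figure D2:**
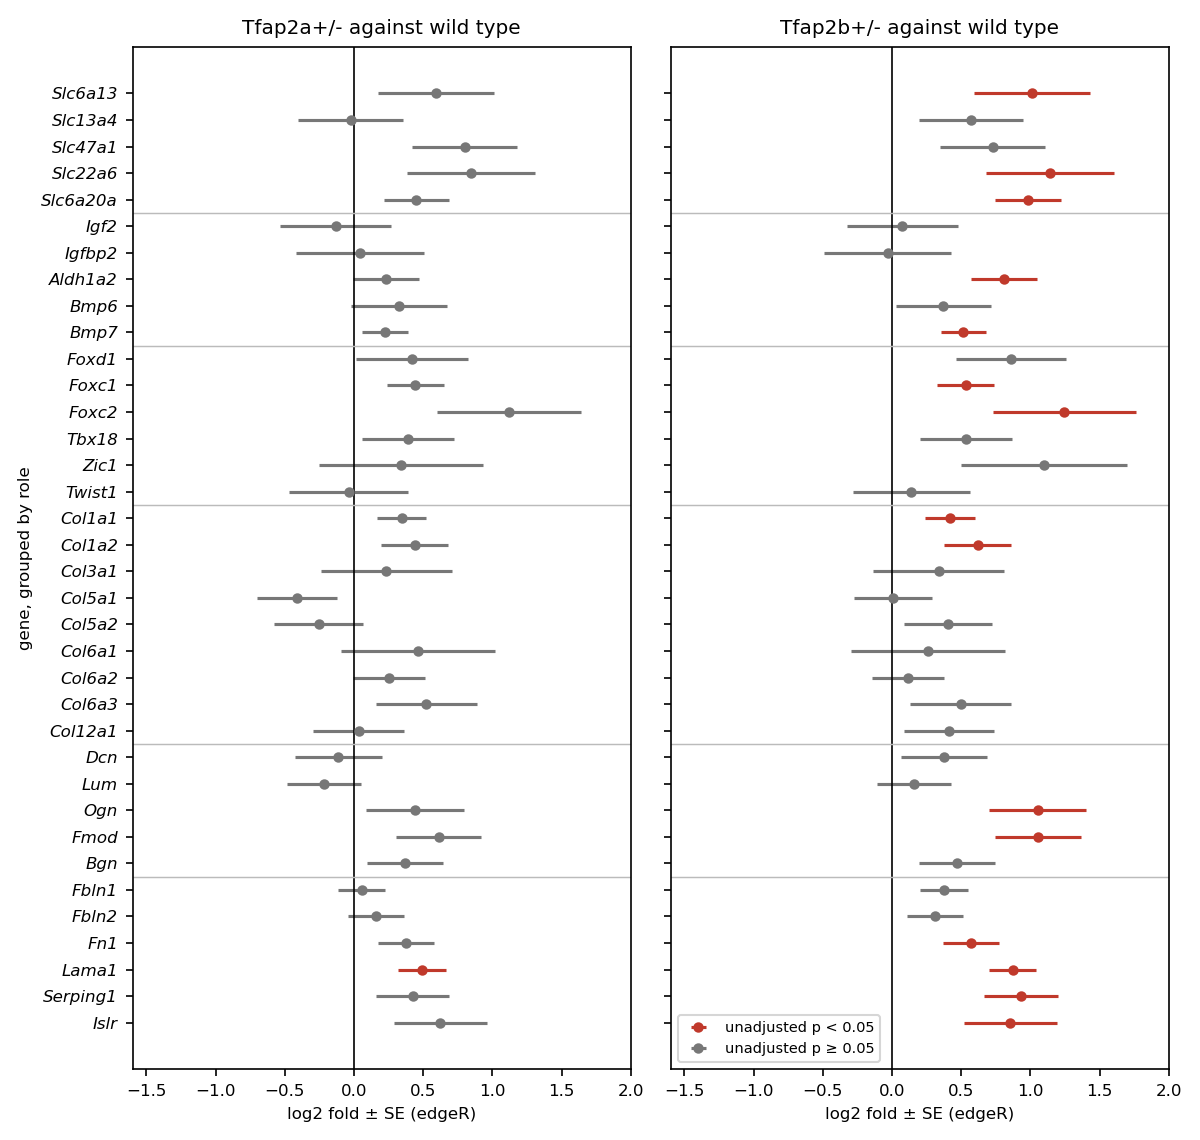
Log2 fold against wild type (points, with bars of 1 SE from edgeR) for the 36 genes grouped by role, in Tfap2a+/- (left) and in the libraries labelled Tfap2b+/- (right). Points in red have an unadjusted p under 0.05: Lama1 on the left and 15 genes on the right, all to the right of 0.

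The transporters had the highest median fold of the 6 groups in Tfap2b+/-, 0.99 on the log2 scale, with 3 of 5 at an unadjusted p under 0.05, and their median in Tfap2a+/- was 0.59 with 0 of 5. At that level 6.46% of all genes were higher in Tfap2b+/- and 2.15% in Tfap2a+/-. The first median was 0.58 without Tfap2b+/- library 3, and the count of 3 was 1 without that library or without wild-type library 1. Slc6a20a, a proline and imino acid transporter, was at 15.8, 9.86 and 14.6 CPM in wild type, given here and below in the order of libraries 1, 2 and 3, at 18.6, 15.2 and 21.2 CPM in Tfap2a+/- and at 24.2, 20.6 and 34.8 CPM in Tfap2b+/-. All 3 Tfap2b+/- libraries lay above all wild-type libraries, and Tfap2a+/- overlapped both. The log2 fold of Slc6a20a in Tfap2b+/- was 0.99 ± 0.24 (95% interval 0.45 to 1.52, adjusted p = 0.317).

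Slc22a6, the organic anion transporter OAT1, was at 6.34, 2.52 and 7.18 CPM in wild type, at 8.73, 7.17 and 12.9 CPM in Tfap2a+/- and at 8.12, 8.09 and 19.3 CPM in Tfap2b+/-. Slc6a13, a GABA and taurine transporter of the leptomeninges, was at 9.11, 3.54 and 10.7 CPM in wild type, at 11.5, 10.2 and 13.5 CPM in Tfap2a+/- and at 13.7, 9.71 and 23.7 CPM in Tfap2b+/-. In both genes wild-type library 2 was the lowest of all 9 and Tfap2b+/- library 3 the highest. The log2 folds in Tfap2b+/- were 1.15 ± 0.46 for Slc22a6 (adjusted p = 0.462) and 1.01 ± 0.42 for Slc6a13 (adjusted p = 0.463), and without Tfap2b+/- library 3 they were 0.60 and 0.58.

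Slc47a1, the MATE1 exporter of organic cations, was at 3.01, 2.94 and 3.36 CPM in wild type, at 5.24, 3.65 and 7.33 CPM in Tfap2a+/- and at 6.11, 2.46 and 6.86 CPM in Tfap2b+/-. All Tfap2a+/- libraries lay above wild type, at a log2 fold of 0.80 ± 0.38 (adjusted p = 0.999), whereas Tfap2b+/- library 2 was the lowest of the 9. Slc13a4, a sodium-sulfate cotransporter, ran the other way within wild type, at 12.7, 26.6 and 13.7 CPM. It was at 18.7, 12.3 and 21.3 CPM in Tfap2a+/- and at 20.1, 18.9 and 40.1 CPM in Tfap2b+/-, and the groups overlapped.

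Among the signals, Aldh1a2 encodes RALDH2, which makes the retinoic acid that the meninges release. It was at 7.94, 9.11 and 9.89 CPM in wild type, at 10.7, 8.55 and 12.4 CPM in Tfap2a+/- and at 14.5, 11.2 and 21.6 CPM in Tfap2b+/-. The Tfap2b+/- libraries lay above all wild-type libraries, with a log2 fold of 0.81 ± 0.24 (95% interval 0.27 to 1.35, adjusted p = 0.367), which was 0.51 without library 3. Bmp7, a bone morphogenetic protein of the meninges, was at 13.1, 17.4 and 13.4 CPM in wild type, at 17.8, 14.7 and 18.7 CPM in Tfap2a+/- and at 21.4, 17.2 and 24.0 CPM in Tfap2b+/-, with an overlap at library 2 of each genotype. Its log2 fold in Tfap2b+/- was 0.51 ± 0.16 (adjusted p = 0.388).

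The other 3 signals had their highest or second highest value in wild-type library 2, the library with the high choroid plexus sum. Igfbp2 was at 21.1, 61.5 and 19.3 CPM in wild type, at 40.3, 24.7 and 40.1 CPM in Tfap2a+/- and at 24.1, 27.3 and 48.6 CPM in Tfap2b+/-. Its fetal growth factor partner Igf2 was at 2.91, 5.42 and 2.47 CPM in wild type, at 3.97, 1.87 and 4.01 CPM in Tfap2a+/- and at 2.82, 3.30 and 5.28 CPM in Tfap2b+/-. Bmp6, also a bone morphogenetic protein, was at 10.6, 21.1 and 9.07 CPM in wild type, at 19.6, 15.7 and 15.9 CPM in Tfap2a+/- and at 14.3, 13.4 and 25.3 CPM in Tfap2b+/-. The groups overlapped for all 3 genes. The log2 fold of Igfbp2 in Tfap2b+/- was -0.03, and it was 0.73 without wild-type library 2, 0.16 without Tfap2b+/- library 1 and 0.09 without Tfap2b+/- library 2. The annotated gene Gm49394 shares 62.8% of the exon bases of Igf2 on the same strand, so reads from those bases cannot be assigned, and the level of Igf2 is a lower limit.

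Among the transcription factors, Foxc1 is a forkhead gene that the meninges need to form, and Foxc2 is its close relative. Foxc1 was at 6.95, 5.76 and 7.18 CPM in wild type, at 8.15, 8.999 and 9.90 CPM in Tfap2a+/- and at 8.72, 7.31 and 12.7 CPM in Tfap2b+/-, so that all 6 libraries labelled as heterozygous lay above all 3 wild-type libraries. The log2 fold was 0.44 ± 0.21 in Tfap2a+/- (adjusted p = 0.999) and 0.53 ± 0.21 in Tfap2b+/- (adjusted p = 0.45), the latter 0.27 without library 3. Foxc2 was at 1.13, 1.35 and 0.811 CPM in wild type, at 1.99, 1.43 and 3.78 CPM in Tfap2a+/- and at 2.26, 1.21 and 4.37 CPM in Tfap2b+/-. Library 3 was the highest in Tfap2a+/- and in Tfap2b+/-, and the log2 folds were 1.12 ± 0.52 (adjusted p = 0.999) and 1.25 ± 0.52 (adjusted p = 0.463), the latter 0.65 without library 3 of Tfap2b+/-. 

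Zic1, a zinc-finger factor, was at 41.4, 36.5 and 25.3 CPM in wild type, at 92.4, 20.8 and 16.9 CPM in Tfap2a+/- and at 72.0, 99.96 and 48.9 CPM in Tfap2b+/-. It split the Tfap2a+/- libraries, with library 1 above and libraries 2 and 3 below every wild-type library. All Tfap2b+/- values lay above wild type, but the spread left a log2 interval from -0.25 to 2.45. The 8 cerebellar granule cell markers, of which 6 passed the filter, summed to 151 to 189 CPM in wild type, to 108 to 117 CPM in Tfap2a+/- and to 162 to 197 CPM in Tfap2b+/-. The list includes Eomes, which is also on the olfactory bulb list. Eomes made up 16.5 CPM of the sum of 162 CPM in Tfap2b+/- library 3, and was at 0.0376 to 3.39 CPM in the other libraries. The part of granule cells in the levels of Zic1 was not tested. Foxd1, a forkhead gene, was at 1.03, 2.45 and 1.27 CPM in wild type, at 2.02, 1.29 and 3.09 CPM in Tfap2a+/- and at 2.82, 2.36 and 3.51 CPM in Tfap2b+/-. The T-box gene Tbx18, known also in pericytes and smooth muscle, ran from 2.43 to 5.99 CPM, and the helix-loop-helix gene Twist1 from 0.28 to 1.05 CPM. Both Tbx18 and Twist1 overlapped between the genotypes, and Twist1 was lowest and highest within wild type.

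**Figure D3:**
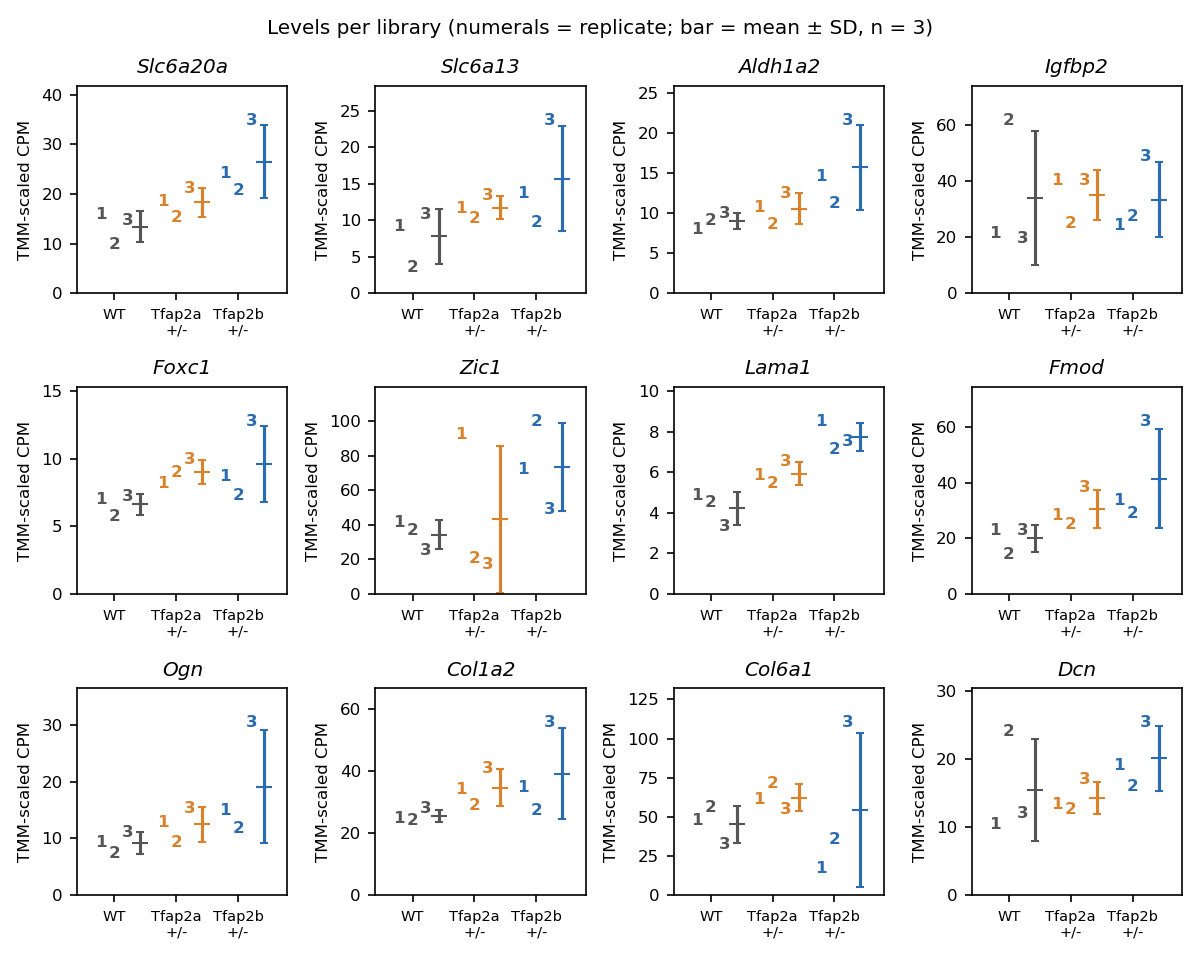
TMM-scaled CPM of 12 genes in each library (numerals give the replicate number) with the mean and SD of each genotype (bars, n = 3). Lama1 shows 3 separate ranges, 3.32 to 4.84 CPM in wild type, 5.44 to 6.54 CPM in Tfap2a+/- and 7.14 to 8.51 CPM in Tfap2b+/-, whereas the range of Igfbp2 and Dcn in wild type is set by library 2.

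Of the 9 collagen chains, 7 had a higher fitted level in Tfap2a+/- and 9 in Tfap2b+/-, with median log2 folds of 0.25 and 0.41. Leaving out wild-type library 3 gave 0.16 in Tfap2b+/-, and leaving out Tfap2b+/- library 3 gave 0.03, with 5 of 9 higher. Type I collagen is the main fibril of meningeal connective tissue. Its alpha 2 chain, Col1a2, was at 24.5, 24.1 and 27.8 CPM in wild type, at 34.0, 28.8 and 40.8 CPM in Tfap2a+/- and at 34.6, 27.2 and 55.6 CPM in Tfap2b+/-. The alpha 1 chain, Col1a1, was at 13.3, 18.4 and 14.8 CPM in wild type, at 17.2, 17.7 and 24.4 CPM in Tfap2a+/- and at 22.1, 17.6 and 22.6 CPM in Tfap2b+/-. For Col1a2, all Tfap2a+/- libraries lay above wild type and Tfap2b+/- library 2 fell inside the wild-type range. For Col1a1, Tfap2a+/- libraries 1 and 2 and Tfap2b+/- library 2 fell inside it. In Tfap2b+/- the log2 folds were 0.62 ± 0.24 for Col1a2 (adjusted p = 0.452) and 0.42 ± 0.18 for Col1a1 (adjusted p = 0.466), and without library 3 they were 0.28 and 0.35.

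Type VI collagen forms beaded microfibrils around cells. Col6a1 was at 47.5, 55.7 and 32.6 CPM in wild type, at 61.2, 71.1 and 54.5 CPM in Tfap2a+/- and at 16.8, 35.7 and 110.2 CPM in Tfap2b+/-. Tfap2b+/- thus held both the lowest and the highest of the 9 values. Its neighbour Col6a2, next to it on chromosome 10, was at 18.9, 16.9 and 16.3 CPM in wild type, at 18.5, 20.4 and 23.1 CPM in Tfap2a+/- and at 14.2, 13.6 and 28.7 CPM in Tfap2b+/-. Without library 3, both chains were lower in Tfap2b+/- at an unadjusted p under 0.05, as were 7.57% of all genes in that fit. The ratio of Col6a1 to Col6a2 counts ran from 1.18 in Tfap2b+/- library 1 to 3.85 in library 3. Col6a3, the third chain, was at 5.59, 3.54 and 4.44 CPM in wild type, at 10.4, 4.14 and 4.79 CPM in Tfap2a+/- and at 7.91, 4.68 and 6.52 CPM in Tfap2b+/-, and overlapped between all genotypes.

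The fibrillar collagen Col3a1 was at 4.70, 13.7 and 4.44 CPM in wild type, at 8.66, 7.66 and 10.6 CPM in Tfap2a+/- and at 7.91, 5.97 and 15.05 CPM in Tfap2b+/-, with wild-type library 2 nearly as high as the highest of all 9. Col5a1 and Col5a2 encode chains of type V collagen, which starts collagen fibrils. Col5a1 hardly varied in wild type, at 23.4, 22.8 and 23.7 CPM, was at 10.6, 14.9 and 27.1 CPM in Tfap2a+/- and was at 20.0, 24.4 and 25.9 CPM in Tfap2b+/-. Col5a2, which lies next to Col3a1 on chromosome 1, ran from 3.88 to 9.81 CPM, and the fibril-associated Col12a1 from 12.2 to 38.1 CPM. The genotypes overlapped for all 4 genes.

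The small leucine-rich proteoglycans bind collagen fibrils and set their thickness. All 5 were highest in Tfap2b+/- library 3. Fibromodulin, Fmod, was at 22.9, 14.3 and 22.7 CPM in wild type, at 28.2, 25.1 and 38.2 CPM in Tfap2a+/- and at 33.6, 29.0 and 62.1 CPM in Tfap2b+/-, and every library of both knockout labels lay above every wild-type library. Its log2 fold in Tfap2b+/- was 1.06 ± 0.31 (95% interval 0.35 to 1.76, adjusted p = 0.366), or 0.65 without library 3. Osteoglycin, Ogn, was at 9.20, 7.26 and 11.1 CPM in wild type, at 12.9, 9.27 and 15.2 CPM in Tfap2a+/- and at 15.0, 11.8 and 30.5 CPM in Tfap2b+/-. Only Tfap2b+/- lay wholly above wild type for Ogn, at a log2 fold of 1.05 ± 0.35 (adjusted p = 0.404), or 0.54 without library 3.

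Decorin, Dcn, was at 10.3, 24.1 and 11.97 CPM in wild type, at 13.4, 12.6 and 16.95 CPM in Tfap2a+/- and at 19.1, 15.9 and 25.4 CPM in Tfap2b+/-. Wild-type library 2 was the second highest of the 9, so the groups overlapped. Lumican, Lum, the neighbour of Dcn on chromosome 10, was low throughout, from 2.05 to 4.26 CPM, and the ratio of Dcn to Lum counts lay between 3.86 and 8.18. Biglycan, Bgn, was at 16.2, 20.4 and 17.4 CPM in wild type, at 21.6, 20.8 and 27.2 CPM in Tfap2a+/- and at 18.4, 18.5 and 37.9 CPM in Tfap2b+/-. The Tfap2a+/- libraries all lay above wild type for Bgn, by a small margin in library 2.

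Among the matrix glycoproteins, Lama1 stood apart. It encodes the alpha 1 chain of laminin, a chain of the pial basement membrane. Lama1 was at 4.84, 4.52 and 3.32 CPM in wild type, at 5.82, 5.44 and 6.54 CPM in Tfap2a+/- and at 8.51, 7.14 and 7.54 CPM in Tfap2b+/-. The 3 genotypes did not overlap, and Lama1 was the only one of the 36 with Tfap2a+/- wholly below Tfap2b+/- (9.2% of all genes). Its log2 fold was 0.49 ± 0.17 in Tfap2a+/- (95% interval 0.10 to 0.88, adjusted p = 0.999). In Tfap2b+/- it was 0.87 ± 0.17 (95% interval 0.48 to 1.26, adjusted p = 0.26). Unlike most of the 36 genes, Lama1 was not highest in Tfap2b+/- library 3, and without that library its log2 fold in Tfap2b+/- was 0.89.

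Fibronectin, Fn1, which endothelial cells make as well, was at 77.1, 82.5 and 88.3 CPM in wild type, at 117, 86.7 and 118 CPM in Tfap2a+/- and at 105, 97.4 and 166 CPM in Tfap2b+/-. Serping1, the C1 inhibitor of the complement system, was at 5.73, 6.66 and 6.18 CPM in wild type, at 9.48, 5.75 and 9.67 CPM in Tfap2a+/- and at 10.1, 9.03 and 16.4 CPM in Tfap2b+/-. For both genes Tfap2b+/- lay wholly above wild type, and Tfap2a+/- library 2 fell inside the wild-type range. The log2 folds in Tfap2b+/- were 0.57 ± 0.20 for Fn1 (adjusted p = 0.429) and 0.93 ± 0.26 for Serping1 (adjusted p = 0.366), and 0.29 and 0.62 without library 3.

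Islr, which encodes meflin, a surface protein of mesenchymal cells, was at 12.1, 8.28 and 9.46 CPM in wild type, at 14.9, 14.3 and 16.7 CPM in Tfap2a+/- and at 13.4, 11.0 and 29.6 CPM in Tfap2b+/-. Here the Tfap2a+/- libraries lay above all wild-type libraries, while 1 Tfap2b+/- library fell inside the wild-type range and library 3 stood far above the others. The log2 fold in Tfap2b+/- was 0.86 ± 0.34 (adjusted p = 0.452), or 0.30 without library 3. The fibulins Fbln1 and Fbln2, which link elastic fibres and basement membranes, ran from 9.64 to 16.1 CPM and from 4.40 to 7.92 CPM, with overlapping genotypes.

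Single libraries stood apart over much of the set. Tfap2b+/- library 3 held the highest value of 26 of the 36 genes, or 72.2%, where it held the highest value of 11.9% of all genes. It lay above all wild-type libraries for 33 of the 36, compared with 21 for library 1 and 13 for library 2 of that genotype. In Tfap2a+/- the numbers were 20, 11 and 21 for libraries 1, 2 and 3. For all genes these shares were 33.7%, 24.4% and 26.8% in Tfap2b+/- libraries 1 to 3 and 22.6%, 21.8% and 25.7% in Tfap2a+/- libraries 1 to 3. Within Tfap2a+/- and within Tfap2b+/-, library 2 held the lowest value of 27 of the 36 genes, against 28.2% and 24.8% of all genes. Library 3 held the highest of 26 and 32 of the 36, against 36.5% and 38.2% of all genes. The lowest of the 9 values was in a wild-type library for 27 genes, 9 in library 1, 11 in library 2 and 7 in library 3. Of all genes, 9.03%, 14.9% and 7.69% were lowest in wild-type libraries 1, 2 and 3.

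Without Tfap2b+/- library 3, the median log2 fold of the 36 genes in Tfap2b+/- was 0.28, with 29 of 36 higher and 8 at an unadjusted p under 0.05. Of those 8, 6 were higher (Slc6a20a, Aldh1a2, Bmp7, Fmod, Lama1 and Serping1) and 2 lower (Col6a1 and Col6a2), where 8.17% of all genes were higher and 7.57% lower at that level. The count was also 8 without wild-type library 1. In Tfap2a+/- the count, 1 with all libraries, was 10 without Tfap2b+/- library 3 (all higher, as were 2.59% of all genes), 5 without wild-type library 2, 5 without Tfap2a+/- library 2, 4 without Tfap2b+/- library 2, 2 without Tfap2a+/- library 1 and 0 without wild-type library 3. Shares of all genes are given here only for the fits without Tfap2b+/- library 3, so the other counts are not read as a result about the 36. With single libraries left out, the median in Tfap2a+/- lay between 0.21, without its library 3, and 0.43.

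**Figure D4:**
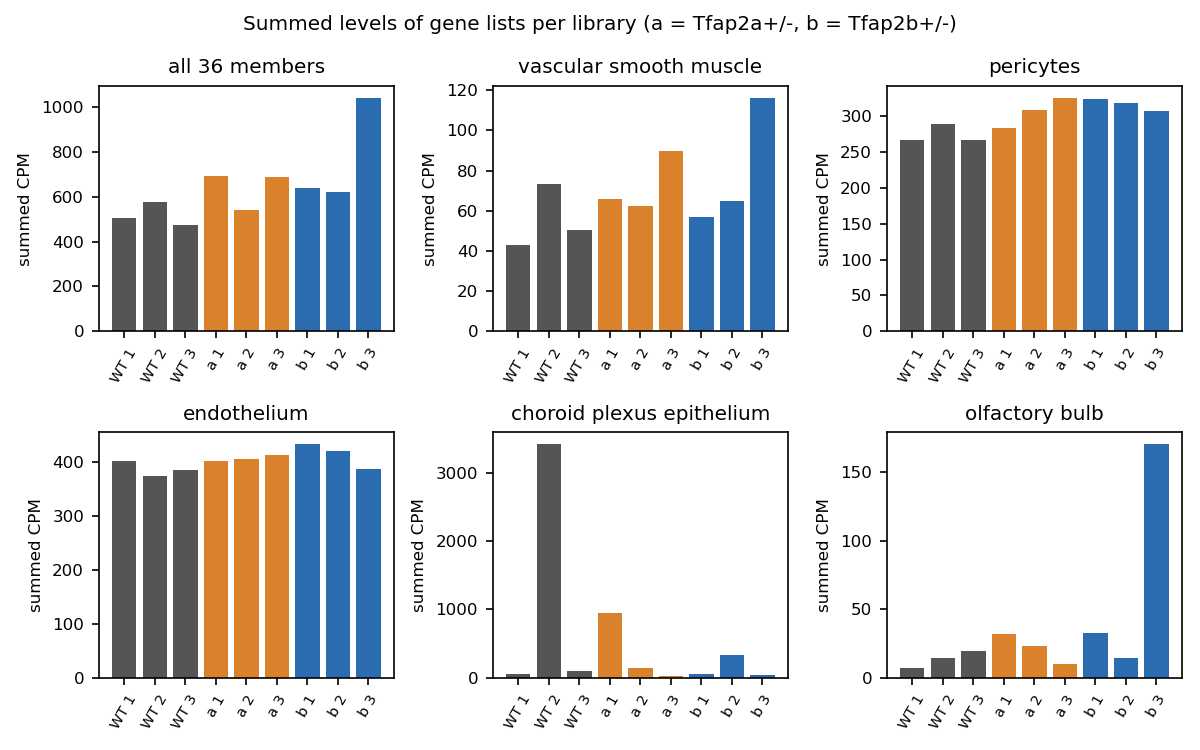
Summed CPM per library of the 36 genes and of 5 lists of markers of other cells or regions (bars start at 0). The 36 genes sum to 475 to 577 CPM in wild type, 540 to 690 CPM in Tfap2a+/- and 622 to 1041 CPM in Tfap2b+/-, and the library with the highest sum also has the highest vascular smooth muscle and olfactory bulb sums.

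Wild type itself was split by library 2. That library was at over 1.5 times the mean of the other 2 for 9 of the 36 genes (9.93% of all genes), Igfbp2 (3.04 times), Col3a1 (2.99 times), Dcn, Bmp6, Foxd1, Igf2, Slc13a4, Twist1 and Col5a2. It was at under 0.67 times for 4 genes, Slc6a13 (0.357 times), Slc22a6 (0.373 times), Fmod and Slc6a20a. By the same measure, wild-type libraries 1 and 3 were at over 1.5 times for 1 and 2 genes and at under 0.67 times for 6 and 8. The choroid plexus sum was 3421 CPM in wild-type library 2 and 61.0 and 103 CPM in wild-type libraries 1 and 3, and its part in these differences was not tested. Tfap2b+/- library 3, with a choroid plexus sum of 36.9 CPM, was at over 1.5 times the mean of its genotype's other libraries for 23 of the 36 genes (9.25% of all genes). Among them were genes high in wild-type library 2, genes low in it and genes of neither group. The genes that differed most in it were Col6a1 (4.20 times), Foxc2 (2.52 times), Islr (2.42 times) and Slc22a6 (2.38 times).

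**Figure D5:**
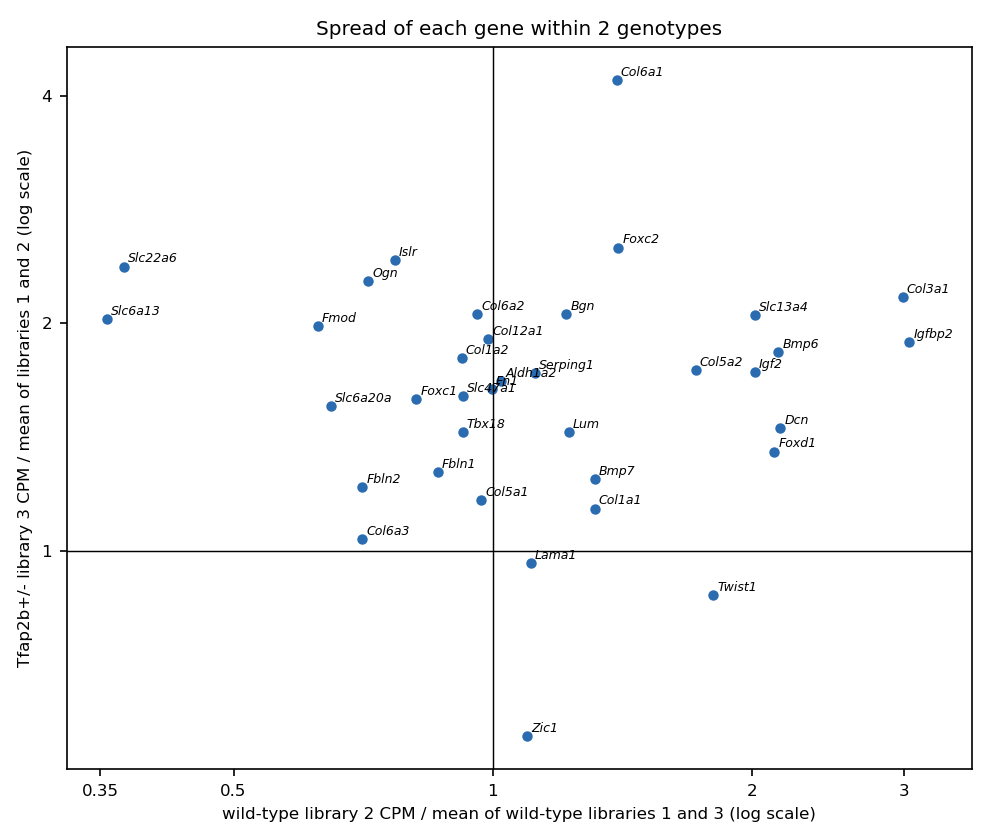
Each point is 1 of the 36 genes, placed by its level in wild-type library 2 over the mean of wild-type libraries 1 and 3 (x, log scale) and by its level in Tfap2b+/- library 3 over the mean of libraries 1 and 2 of that genotype (y, log scale). Genes spread from 0.357 to 3.04 times on the x axis, whereas 33 of 36 lie above 1 on the y axis.

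Set directly against Tfap2b+/-, Tfap2a+/- had a lower fitted level for 31 of the 36 genes, with a median log2 fold of -0.26. No gene passed an adjusted p of 0.05 in edgeR. DESeq2 called 0 of the 36 as well, though it called genes outside the set. At an unadjusted p under 0.05, 2 of the 36 were lower and 0 higher, where 6.53% of all genes were lower and 4.98% higher. These were Aldh1a2 (log2 fold -0.58 ± 0.24, adjusted p = 0.417) and Slc6a20a (log2 fold -0.53 ± 0.23, adjusted p = 0.432). Lama1 followed at -0.38 ± 0.17 (adjusted p = 0.434) and Col5a2 at -0.66 ± 0.32 (adjusted p = 0.463). Without Tfap2b+/- library 3 the median was -0.00, with 18 of 36 lower, and Aldh1a2 and Slc6a20a were at -0.28 and -0.29. The count at an unadjusted p under 0.05 was 0 without Tfap2a+/- library 2, 1 without Tfap2a+/- library 1 or wild-type library 3, 4 without Tfap2a+/- library 3 and 7 without Tfap2b+/- library 2.

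Of 17 basement membrane genes other than Lama1, 14 had a higher fitted level in Tfap2b+/- (median log2 fold 0.30). At an unadjusted p under 0.05, 5 were higher (6.46% of all genes) and 0 lower, and none passed an adjusted p of 0.05. Their median moved to 0.12, 0.14 and 0.16 when wild-type library 3, Tfap2b+/- library 3 or Tfap2b+/- library 1 was left out, and to 0.48 when wild-type library 2 was. Lamb2, a laminin beta chain of the pia and of vessels, was at 31.2, 34.3 and 35.3 CPM in wild type, at 35.9, 37.1 and 41.1 CPM in Tfap2a+/- and at 46.8, 40.5 and 50.9 CPM in Tfap2b+/-, a log2 fold of 0.46 ± 0.10 (adjusted p = 0.291). Col4a6, a type IV collagen chain, was at 1.46, 1.47 and 1.58 CPM in wild type, at 1.92, 2.45 and 2.30 CPM in Tfap2a+/- and at 3.04, 2.36 and 4.41 CPM in Tfap2b+/-, a log2 fold of 1.12 ± 0.26 (adjusted p = 0.292). Every library of both knockout labels lay above every wild-type library for both genes. The count of 5 was 11 without wild-type library 2, and 4 or 5 without any other single library. In Tfap2a+/- 1 of the 17 was higher at an unadjusted p under 0.05 (2.15% of all genes), Lamc3, a laminin gamma chain (log2 fold 0.39 ± 0.14), a count that ran from 0 without wild-type library 3 or Tfap2a+/- library 3 to 4 without wild-type library 2. Against Tfap2b+/-, Tfap2a+/- was lower for 2 of 17, Lamb2 (log2 fold -0.28 ± 0.10) and Lama2, a laminin alpha chain (log2 fold -0.46 ± 0.17), where 6.53% of all genes were lower. That count was 0 without Tfap2a+/- library 2 or Tfap2b+/- library 1 and 1 without Tfap2a+/- library 3.

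In the retinoic acid pathway around Aldh1a2, 6 of 16 tested genes had a higher fitted level in Tfap2b+/- and 10 of 16 in Tfap2a+/-. The median in Tfap2b+/- was -0.17, but 0.08 without wild-type library 2, with 9 of 16 then higher. Of the 16, 1 was higher and 1 lower in Tfap2b+/- at an unadjusted p under 0.05, near the shares of all genes (6.46% and 4.15%), and 0 were lower without wild-type library 2 or Tfap2b+/- library 1. Crabp2, a carrier that brings retinoic acid to its receptors, was at 1.27, 1.35 and 1.74 CPM in wild type, at 2.46, 1.87 and 2.17 CPM in Tfap2a+/- and at 2.86, 2.73 and 4.53 CPM in Tfap2b+/-, and had a log2 fold of 1.21 ± 0.26 in Tfap2b+/- (adjusted p = 0.266). The receptor gene Rara was at 12.4, 21.3 and 14.6 CPM in wild type, at 10.6, 10.2 and 8.34 CPM in Tfap2a+/- and at 10.8, 11.997 and 11.4 CPM in Tfap2b+/-, with log2 folds of -0.72 ± 0.19 and -0.50 ± 0.19. In Tfap2a+/- 3 genes were higher (1 without wild-type library 1 or Tfap2a+/- library 1) and 1 lower, against 2.15% and 1.68% of all genes, with Rxrg, a receptor subunit known in striatal neurons, at the largest log2 fold, 2.56 ± 0.70. Tfap2a+/- against Tfap2b+/- had 4 higher, Dhrs3, which reduces retinaldehyde, among them (log2 fold 0.49 ± 0.16) with Rxrg (2.03 ± 0.68), and 2 lower, against 4.98% and 6.53% of all genes. The 4 were 2 without Tfap2a+/- library 2, Tfap2b+/- library 1 or Tfap2b+/- library 2, and the 2 were 0 without Tfap2a+/- library 2.

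Of 26 BMP and TGF-beta genes, 2 were higher and 1 lower in Tfap2a+/- at an unadjusted p under 0.05, where 2.15% of all genes were higher and 1.68% lower. They were the endothelial receptor gene Acvrl1 (log2 fold 0.41 ± 0.09, adjusted p = 0.93), its co-receptor gene Eng and, lower, the BMP target Id1 (-0.31 ± 0.13). With single libraries left out the count of higher genes ran from 1 to 5, with 5 without Tfap2b+/- library 3, and the count of lower genes from 0 to 3, with 3 without wild-type library 1. In Tfap2b+/- 1 of 26 was higher, the ligand gene Bmp5 (0.81 ± 0.28), and 0 lower, below the shares of all genes (6.46% and 4.15%). Tfap2a+/- against Tfap2b+/- had 4 higher, led by Acvrl1 (0.40 ± 0.09) and Eng (0.28 ± 0.08), and 2 lower, against 4.98% and 6.53% of all genes. The 4 were 8 without Tfap2b+/- library 3 and 2 without Tfap2a+/- library 3, and the 2 were 0 without Tfap2a+/- library 2 or Tfap2b+/- library 1.

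Of 10 genes of the insulin-like growth factor system, 0 were higher or lower in Tfap2a+/- (2 lower without wild-type library 2). In Tfap2b+/- 1 was higher, Igf1 (log2 fold 0.37 ± 0.15), and 1 lower, the binding protein gene Igfbp4 (-0.69 ± 0.28), close to the shares of all genes (6.46% and 4.15%), and both counts were 0 without wild-type library 1. Igf1 was also the 1 gene of the 10 lower in Tfap2a+/- than in Tfap2b+/- (-0.45 ± 0.15), with 0 higher. Of all genes, 6.53% were lower and 4.98% higher in that comparison. Without Tfap2a+/- library 1, 0 of the 10 were lower.

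Genes that process collagen had median log2 folds of -0.04 in Tfap2a+/- and 0.01 in Tfap2b+/-. Both changed sign with single libraries left out, to 0.06 and 0.17 without wild-type library 2, and the second to -0.10 without wild-type library 3 and -0.08 without Tfap2b+/- library 3. Of 26 tested for folding, processing and cross-linking, 1 was higher in Tfap2a+/- (Adamts3, a procollagen N-proteinase, log2 fold 0.66 ± 0.26) and 1 in Tfap2b+/- (P3h3, a prolyl 3-hydroxylase, 0.42 ± 0.17), with 0 lower in each, where 2.15% and 6.46% of all genes were higher. Tfap2a+/- against Tfap2b+/- had 2 higher and 2 lower, the lysyl hydroxylase gene Plod2 (-0.82 ± 0.20) and the prolyl 4-hydroxylase gene P4ha2 (-0.29 ± 0.11). Of all genes, 4.98% were higher and 6.53% lower in that comparison. Of 15 matrix proteases and inhibitors, 3 were higher in Tfap2b+/-, led by Reck, a membrane inhibitor (0.52 ± 0.18), and the membrane protease Mmp14 (0.44 ± 0.16), with 0 lower. The shares of all genes were 6.46% higher and 4.15% lower. In Tfap2a+/- cathepsin K, Ctsk, was higher (0.68 ± 0.27) and the protease Adamts1 lower (-0.75 ± 0.27), and against Tfap2b+/- the inhibitor Timp3 was lower (-0.27 ± 0.11), with 0 higher. Here the shares of all genes were 2.15% higher and 1.68% lower against wild type, and 4.98% and 6.53% against Tfap2b+/-. The counts of both lists moved between 0 and 4 with single libraries left out, and the count of 3 proteases and inhibitors higher in Tfap2b+/- was 0 without wild-type library 3 and 1 without Tfap2b+/- library 3. All these pathway genes had adjusted p-values above 0.05.

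Among the 23 other meningeal markers tested, 18 had a higher fitted level in Tfap2b+/- (median log2 fold 0.19) and 14 in Tfap2a+/- (0.14), with 4 and 1 higher at an unadjusted p under 0.05 and 0 lower in each. Of all genes, 6.46% were higher at that level in Tfap2b+/- and 2.15% in Tfap2a+/-. Crabp2, given above with the retinoic acid genes, is on this list too, so the lists are not separate observations. The count of 4 was 2 without wild-type library 2 or Tfap2b+/- library 3, and the count of 1 ran from 0 without Tfap2a+/- library 3 to 3 without wild-type library 3. Of the marker lists for vessels, 2 of 7 smooth muscle, 3 of 9 pericyte and 1 of 12 endothelial genes were higher at that level in Tfap2b+/-, and 0, 2 and 0 in Tfap2a+/-. The shares of all genes were again 6.46% and 2.15%. Without Tfap2b+/- library 3 the median log2 fold of the smooth muscle genes in Tfap2b+/- was 0.04, against 0.55 with it. Their summed levels are in the plot of summed CPM, and the part of vessel cells in the levels of the collagens, Fn1 and Tbx18 was not tested.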

How the data were processed

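Polyadenylated brain RNA was sequenced as stranded read pairs from 9 libraries, 3 per genotype. The authors deposited whole-number counts per gene, laid out as STAR writes them, and the submitters' processing notes list GRCm38.p6 as the build and cutadapt 2.4, STAR 2.6.1d and edgeR as tools. No source used here names the annotation release, so gene identifiers were looked up in GENCODE M21, where 54409 of 54446 were found. The dUTP method named in the labels' protocols calls for the reverse-strand counts, which were used. The opposite strand held 4.16% to 4.94% of stranded gene counts. Rows without a gene were left out of library sizes and of testing, and the largest of them, reads outside annotated exons on that strand, held 7.30% to 11.8% of fragments. Reads shared by overlapping genes are not counted.

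From the counts, filterByExpr kept 17355 genes. These were fitted in edgeR 4.0.16 (R 4.3.3) with TMM scaling, genotype as the only term and 1 estimate of spread over all 9 libraries, and tested with the quasi-likelihood F-test. P-values were adjusted by Benjamini-Hochberg over all genes, and log2 folds are given with SE. Libraries of a genotype differed by more than sampling noise, with a chi-square of at least 19.8 per degree of freedom. The floor of 3 counts covers counting error only. Fits were tested on simulated data. Other settings tried were DESeq2 1.42.0, edgeR with DESeq2 size factors, counts without strand, a looser and a stricter filter, a replicate block, subsets of the libraries and each library left out in turn, which keeps 2 in its group.

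The 36 genes and the lists were chosen with earlier results of these data known, and the olfactory lists, of which the one for ensheathing glia summed to 36.9 to 107 CPM, were added after the data had been seen. Every gene of the set is named. Folds with p are given for those with an unadjusted p under 0.05 or, where these are fewer than 4, for the 4 of smallest p, and for up to 2 genes per pathway list. Promoters came from the RefSeq table.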

Additional observations from a re-analysis of the deposited data

How the results depend on the processing

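The median log2 fold of the 36 genes kept its sign under every alternative in both comparisons against wild type. With each library left out in turn it ran from 0.21 to 0.43 in Tfap2a+/- against wild type and from 0.28 to 0.68 in Tfap2b+/- against wild type. In Tfap2a+/- against Tfap2b+/- the median ran from -0.40 to -0.00. At -0.00, reached by leaving out a single Tfap2b+/- library, no difference in the median remained. No fold of the 36 that is given with a p changed sign, whereas that of Igfbp2 in Tfap2b+/-, -0.03, lay between -0.41 and 0.73 with single libraries left out. The fits of the lists and of all 36 genes with single libraries left out were added after the data had been seen. Lama1 and Slc6a20a in Tfap2b+/- passed an adjusted p of 0.05 in DESeq2, at log2 folds of 0.86 and 0.98.

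Counts of genes called over the whole table, 0 in edgeR for each comparison, were 28, 152 and 190 in DESeq2 for Tfap2a+/- and Tfap2b+/- against wild type and for Tfap2a+/- against Tfap2b+/-. Without a filter they were 2 for the first and 7 for the last. Without wild-type library 2, Tfap2a+/- library 1 and Tfap2b+/- library 1 together, chosen from earlier results of these data, they were 2 for the second and 1 for the last. With single libraries left out they ran from 0 to 3, 0 to 4 and 0 to 31.

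The number of the 36 with an unadjusted p under 0.05 in Tfap2a+/- against wild type, 1 in the fit reported, was 3 in DESeq2, 4 without a filter, 9 with only the libraries of the 2 genotypes, 3 without the 3 libraries named above, and 0 to 10 with single libraries left out. In Tfap2b+/- against wild type it ran from 8 to 18 around 15. In Tfap2a+/- against Tfap2b+/-, with 2, it was 1 with DESeq2 size factors, with unstranded counts and without the 3 libraries, and 0 to 7 with single libraries left out. The shares of all genes at that level are not given for these settings, so these counts are not read as a result about the 36. The cause of these differences was not tested.

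Same-numbered libraries of the genotypes deviated from their means with correlations of -0.35 to 0.34. Those of Tfap2a+/- and Tfap2b+/- were 0.34, -0.03 and 0.14 for numbers 1, 2 and 3, and those with wild type were above 0.1 for 1 of 6 pairs. Not every pair was above 0.1, so the numbers were not taken to pair the samples. With a replicate block the number of the 36 at an unadjusted p under 0.05 was 9, 16 and 3 in the 3 comparisons, the first of them 1 without the block. The shares of all genes at that level with the block are not given, so these counts are not read as a result about the 36.

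With 3 libraries per genotype and the spread between them, no single gene of the set is called at the level of all genes in edgeR. The lowest levels, those of Twist1, rest on few counts.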

Other observations

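Igf2 lies in an imprinted cluster, and its neighbours there were low in every library. The non-coding RNA gene H19 was at 0.517, 0.565 and 0.386 CPM in wild type, at 0.171, 0.267 and 0.0921 CPM in Tfap2a+/- and at 0.247, 0.303 and 0.377 CPM in Tfap2b+/-, each in the order of libraries 1, 2 and 3. The insulin gene Ins2 was at 0 to 0.226 CPM, its highest value in wild-type library 2, where Igf2 was also highest. Gm49394, which shares exon bases with Igf2, had 0 to 0.0753 CPM of its own.

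Reads on the strand opposite to the gene were few for the whole set. Over all libraries they made up 0.063% to 3.54% of the stranded counts of a gene, with Foxd1 (3.54%), Bmp7 (2.57%) and Bmp6 (2.44%) the highest. Antisense transcripts are annotated over 20.6% of the exon bases of Tbx18 and 13.8% of those of Slc6a20a. Islr2, which overlaps 6.74% of the exon bases of Islr on the same strand, was at 17.5 to 99.2 CPM, so some reads of Islr could not be assigned.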
